A study of Mus musculus with 6 samples.

Results

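The genes described here are 38 type I interferon-stimulated antiviral genes of the mouse, taken by gene name from the 25251 genes of the deposited table. All 38 were in it. Their RNA was read in whole tumours grown under the skin from CT26 cells, in 3 samples treated with irinotecan (CPT-11) and 3 treated with solvent. CT26 is a colon carcinoma line of BALB/c origin, labelled as wild type in both groups, and the hosts were BALB/c mice, which have an intact immune system. Irinotecan is converted in the body to a drug that traps topoisomerase I on DNA, and per the labels it was injected intraperitoneally at 25 mg/kg every 4 days, from a tumour volume of 100 mm3 on. For the age and sex of the mice and the interval between last dose and collection, the sources used here give no value. The labels list 3 samples per group where the design text has duplicates. They do not tie samples to single mice, and p-values hence cover the spread of these samples, which may be partly technical.

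Cells that sense foreign or misplaced nucleic acid secrete type I interferons, which bind a receptor shared by nearly all cells. The receptor's kinases activate STAT2, which joins IRF9 in a complex that binds the interferon-stimulated response element (ISRE) in promoters and switches on the genes described here. Their products sense viral RNA, degrade or sequester it, block translation and viral egress, and feed back on the signal. In a tumour, cancer cells, leukocytes and stroma can all express them, and in bulk RNA fewer cells of a type and less RNA per cell cannot be told apart.

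The promoter sequences below show the element that several of these genes share. RefSeq promoter windows on GRCm38.p6, from 250 bases before to 50 after the annotated start, were matched for 28 of the 38 genes. The ISRE core searched was GAAANNGAAA on both strands, where overlapping matches count separately. Each line runs 5′ to 3′ on the gene's own strand, and capitals mark the core, which is seen as its reverse complement where it lies on the opposite strand.
Isg15: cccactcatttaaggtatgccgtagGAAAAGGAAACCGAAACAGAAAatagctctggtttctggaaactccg
Oas3: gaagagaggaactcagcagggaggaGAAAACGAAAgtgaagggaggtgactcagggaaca
Ifit1: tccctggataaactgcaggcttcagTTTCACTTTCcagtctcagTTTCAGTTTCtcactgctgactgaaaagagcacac
Ifit3: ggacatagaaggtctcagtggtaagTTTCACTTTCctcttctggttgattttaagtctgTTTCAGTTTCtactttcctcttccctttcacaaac
Ifit3b: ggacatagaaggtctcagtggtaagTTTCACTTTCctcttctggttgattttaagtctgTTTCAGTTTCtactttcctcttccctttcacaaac
Bst2: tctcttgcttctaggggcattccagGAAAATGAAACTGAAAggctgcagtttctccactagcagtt
Isg15 (chr4:156200850-156200921, minus strand) was chosen because it holds 3 overlapping cores, the first starting 78 bases before the start. Oas3 (chr5:120777700-120777759, minus strand) holds 1 core and Ifit1 (chr19:34640760-34640838, plus strand) holds 2. Ifit3 (chr19:34583348-34583441) and its copy Ifit3b (chr19:34607744-34607837), both on the plus strand, are shown because their 94 bases were identical, with 0 mismatches. Bst2 (chr8:71537562-71537627, minus strand) holds 2 overlapping cores and is shown, with its values known, because its log2 fold change was negative.

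The ISRE core was in the window of 13 of the 28 genes (46.4%), against 3.99% of 27025 genes with a RefSeq window. The core of the STAT dimer site, TTCNNNGAA, which reads the same on both strands, was in 7 of 28 (25%), against 9.55% of all genes. A match is a description of these letters, not evidence of a bound factor. The 13 genes with the ISRE core had a median log2 fold change of 0.46, and 6 of them had every irinotecan library above every solvent library. The 15 genes without it had a median of 0.43 and 4 such genes, and the 10 genes with no window had 0.56 and 3. The 3 sets overlapped over most of their range, at -0.14 to 0.72 with the core, -0.03 to 0.78 without it and 0.09 to 0.83 with no window.

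The 6 libraries held 13940650 to 15656894 reads, recovered from the deposited normalized counts. Irinotecan replicate 1 stood apart. It had reads for 19040 genes, against 20571 to 21426 in the other 5 libraries, and differences that it moved by over 1.5 times are also given without it. The RNA of epithelial marker genes was low. Whether CT26 cells express these genes was not tested, so the amount of cancer cells cannot be read from them. Of 7 epithelial markers, Krt19, Epcam, Cdx2 and Vil1 were at or near 0 in every library, and the summed level of the 7 was 124 to 298 normalized counts in irinotecan tumours and 197 to 239 in solvent tumours. The leukocyte gene Ptprc had 1023 to 1453 normalized counts in irinotecan tumours and 1170.4 to 1450.2 in solvent tumours.

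As a set, the antiviral genes had higher values in irinotecan tumours, and no single one passed the test over all genes. The list was chosen with earlier results of these data known, and its genes are not independent replicates. The counts and shares below thus describe the list and are not independent evidence. Of the 38, 35 had a positive log2 fold change of irinotecan over solvent, where 48.2% of the 14639 genes tested did. The median was 0.48, against -0.01 over all genes tested. The ratio of group means ran from 0.942 for Bst2 to 1.75 for Parp14, and 10 genes exceeded 1.5-fold. In 13 of 38 (34.2%) all 3 irinotecan libraries lay above all 3 solvent libraries, which held for 6.68% of all genes tested. In 0 of 38 they all lay below, which held for 7.89% of all genes.

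Limma called 0 of the 38 genes at a Benjamini-Hochberg adjusted p under 0.05, and 0% of all 14639 genes tested. At an unadjusted p under 0.05, 16 of the 38 were higher, against 2.68% of all genes, and 0 were lower, against 3.08%. All 38 passed the filter of a mean normalized count of at least 10, none only through its irinotecan level, and their counts ran from 41 to 2679 recovered reads per library. A fold change here is a difference of mean log2(normalized count + 1), which slightly understates low genes.

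**Figure D1:**
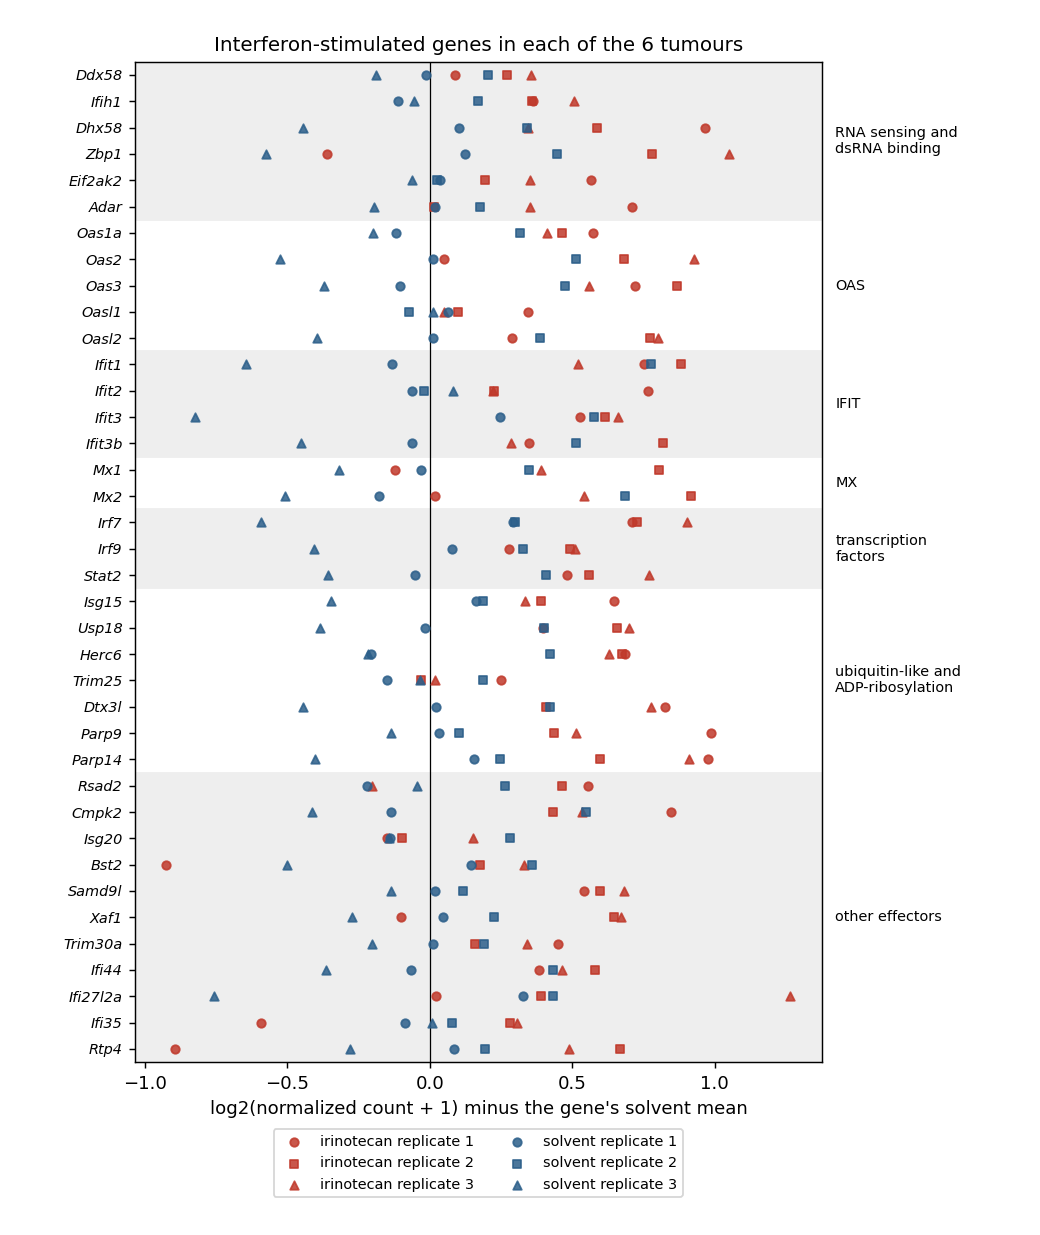
Each row is 1 of the 38 genes and each point 1 library, as log2(normalized count + 1) minus that gene's mean over the solvent libraries (x axis, log2 units), with irinotecan in red and solvent in blue and shapes for replicates. Solvent replicate 3 is the leftmost point in 29 of the 38 rows (lowest for 14.2% of all genes tested). Irinotecan replicate 1 is the highest point in 15 rows and the lowest in 4 (34.2% and 36.8% of all genes tested).

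The spread between tumours was part of the pattern. The median of the 38 genes relative to the solvent mean was 0.42, 0.53 and 0.51 in irinotecan replicates 1, 2 and 3, and 0.01, 0.32 and -0.35 in solvent replicates 1, 2 and 3. The irinotecan medians were thus all above the solvent ones, with solvent replicate 2 close to them and solvent replicate 3 well below. Solvent replicate 3 was the lowest library for 29 of the 38 genes, and for 14.2% of all genes tested. Without it the median was 0.29, and 5 genes were higher at an unadjusted p under 0.05, against 1.41% of all genes. Without solvent replicate 2 the median was 0.68.

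Irinotecan replicate 1 did not rank evenly. Of all 6 libraries it was the highest for 15 of the 38 genes and the lowest for 4, against 34.2% and 36.8% of all genes tested. It was above both other irinotecan libraries for 15 of the 38 genes, among them Dhx58, Ifit2, Parp9 and Parp14, and below both for 19, among them Zbp1, Mx1, Bst2 and Rtp4. Those 8 genes were chosen as examples after their values were seen. Without this library the median of the 38 was 0.54, and 23 genes were higher at an unadjusted p under 0.05, against 4.35% of all genes. The groups then did not overlap for 25 of the 38, against 12.8% of all genes. Across the 38 genes its difference from the other irinotecan libraries had a Spearman coefficient of -0.20 with GC content and 0.28 with gene length, as a description across genes, which are not independent replicates. Over 14620 genes tested the coefficients were -0.30 and 0.33. Removing a trend on GC content and length left the median of the 38 at 0.48.

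**Figure D2:**
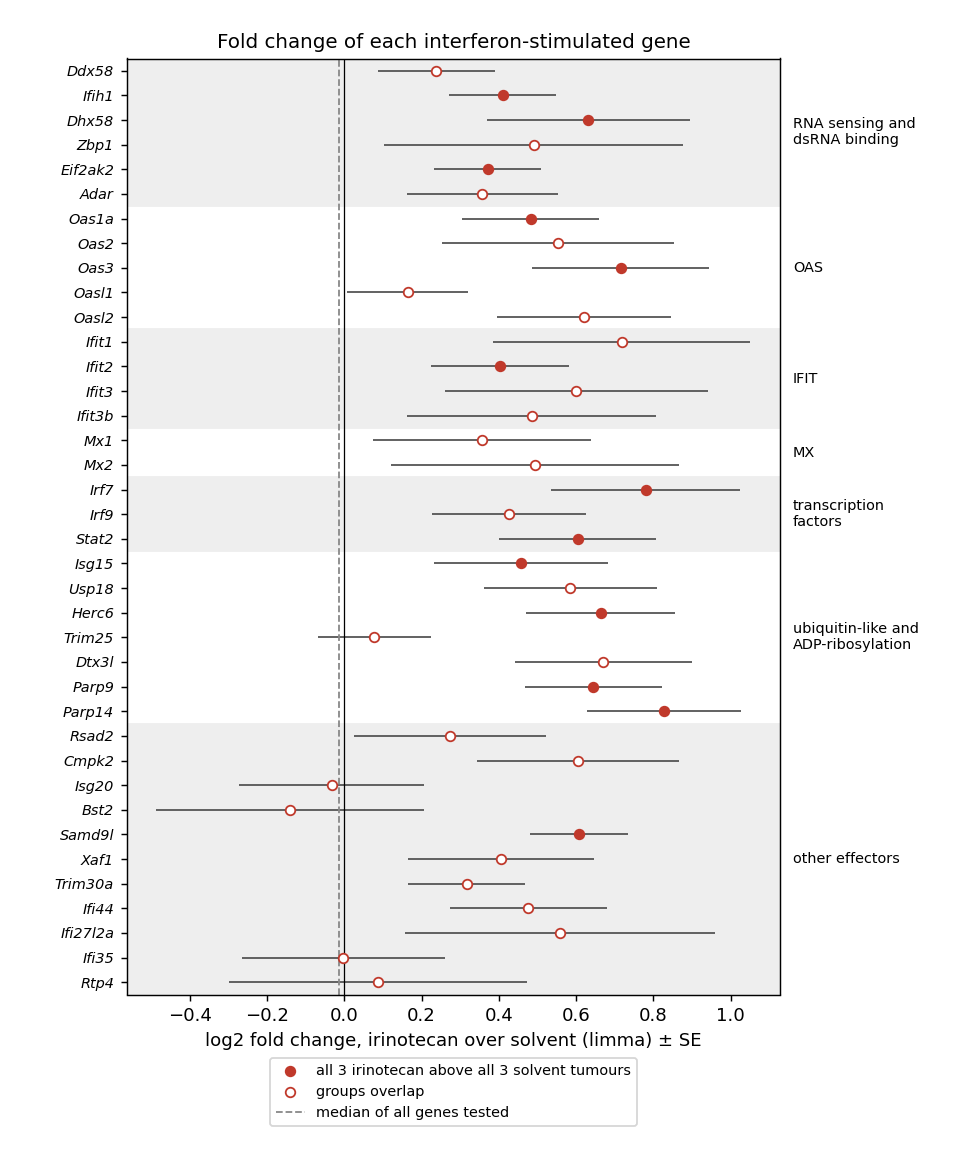
The log2 fold change of irinotecan over solvent (x axis, limma, bars ± SE, n = 3 each) is drawn for each gene by functional group, filled where the irinotecan libraries all lay above the solvent libraries, and the dashed line is the median of all genes tested. The points run from -0.14 for Bst2 to 0.83 for Parp14, and 13 are filled.

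The RNA sensors and double-stranded RNA binding proteins had a median log2 fold change of 0.39. All 6 were positive, 3 were higher at an unadjusted p under 0.05, and in the same number the groups did not overlap. Over all genes tested the shares were 48.2%, 2.68% and 6.68%. Ifih1 encodes MDA5, the cytosolic sensor of long double-stranded RNA, and had 935, 933 and 1033 normalized counts in irinotecan tumours, against 672, 818 and 699 in solvent tumours. Every irinotecan library was above every solvent library (log2 fold change 0.41, SE 0.139). Eif2ak2, which encodes the translation-blocking kinase PKR, had 1621, 1253 and 1397 normalized counts in irinotecan tumours, against 1122, 1115 and 1049 in solvent tumours (0.37, SE 0.140). These groups did not overlap either.

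Ddx58, which encodes RIG-I, the sensor of RNA ends with triphosphates, had 1117, 1266 and 1343 normalized counts in irinotecan tumours, against 1039.6, 1209.7 and 919.9 in solvent tumours. Here the groups overlapped, since solvent replicate 2 exceeded irinotecan replicate 1 (log2 fold change 0.24, SE 0.151, or 0.14 without solvent replicate 3). Dhx58, which encodes LGP2, a regulator of the other sensors, averaged 225 ± 49.7 normalized counts in irinotecan tumours and 146 ± 38.6 in solvent tumours (SD, n = 3 each; log2 fold change 0.63, SE 0.263). Its groups did not overlap, by a narrow margin, as irinotecan replicate 3 had 181.4 and solvent replicate 2 had 180.9, and its difference was 0.41 without solvent replicate 3. Zbp1, a sensor of Z-form nucleic acid, averaged 679 ± 298 in irinotecan tumours and 465 ± 156 in solvent tumours (0.49, SE 0.387), with irinotecan replicate 1 at 347 and the other irinotecan libraries at 767 and 924. The difference of Zbp1 was 0.92 without irinotecan replicate 1, 0.21 without irinotecan replicate 3 and 0.20 without solvent replicate 3, so its size depended on which tumours were used. Adar, the RNA-editing enzyme that limits self-RNA sensing, averaged 1229 ± 295 in irinotecan tumours and 945 ± 121 in solvent tumours (0.36, SE 0.197), or 0.18 without irinotecan replicate 1.

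The OAS family binds double-stranded RNA, and its active members make the messenger that switches on RNase L. All 5 genes were positive, with a median log2 fold change of 0.55, and 2 had groups that did not overlap (6.68% of all genes tested). Oas3 had 516, 573 and 462 normalized counts in irinotecan tumours, against 292, 436 and 242 in solvent tumours. The lowest irinotecan library was above the highest solvent library (log2 fold change 0.72, SE 0.229). Oasl2 had 1656, 2315 and 2363 normalized counts in irinotecan tumours, against 1365, 1772 and 1028 in solvent tumours. Irinotecan replicate 1 lay below solvent replicate 2, so the groups overlapped (0.62, SE 0.225).

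Oas1a averaged 529 ± 30.6 normalized counts in irinotecan tumours and 383 ± 77.4 in solvent tumours (SD, n = 3 each; log2 fold change 0.48, SE 0.177), without overlap. Oas2 averaged 1236 ± 361 in irinotecan tumours and 852 ± 301 in solvent tumours (0.55, SE 0.3), with overlap, and differed by 0.36 without irinotecan replicate 3 and 0.29 without solvent replicate 3. Oasl1, which in mice restrains translation of Irf7, averaged 367 ± 41.2 in irinotecan tumours and 326 ± 15.5 in solvent tumours (0.16, SE 0.157) and had the smallest difference of the family, 0.07 without irinotecan replicate 1. On GRCm38 the OAS genes lie on chromosome 5, Oas2 from 120730333 to 120749853, Oas3 from 120753098 to 120777661 and Oas1a from 120896256 to 120907521, with Oasl2 (114896936 to 114912234) and Oasl1 (114923240 to 114937915) at lower coordinates. The neighbours Oasl2 and Oasl1 had log2 fold changes of 0.62 and 0.16, a contrast that was not tested.

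Several IFIT proteins bind viral RNA that lacks the cap marks of the host. All 4 genes were positive with a median log2 fold change of 0.54. Of them 1 had groups that did not overlap (6.68% of all genes tested), and 0 were higher at an unadjusted p under 0.05 (2.68%). Ifit2 had 1039, 714 and 713 normalized counts in irinotecan tumours, against 585, 602 and 647 in solvent tumours, without overlap (log2 fold change 0.40, SE 0.178). Irinotecan replicate 1 was well above the other irinotecan tumours, and without it the difference of Ifit2 was 0.22. Ifit1 had 343, 376 and 292 in irinotecan tumours, against 185, 349 and 129.8 in solvent tumours. Solvent replicate 2 lay among the irinotecan libraries, and the other solvent tumours lay below all of them (0.72, SE 0.333). It was 0.40 without solvent replicate 3 and 1.11 without solvent replicate 2.

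Ifit3 averaged 197 ± 9.06 normalized counts in irinotecan tumours and 139.8 ± 61.5 in solvent tumours (SD, n = 3 each; log2 fold change 0.60, SE 0.340), and Ifit3b averaged 78.0 ± 16.8 in irinotecan tumours and 56.8 ± 19.7 in solvent tumours (0.48, SE 0.323). Solvent replicate 3 was the lowest library of both genes, and without it the differences were 0.19 for Ifit3 and 0.26 for Ifit3b. That of Ifit3b was 0.32 without irinotecan replicate 2 and 0.74 without solvent replicate 2. Reads of this near-identical pair may have been split between them, so each value is uncertain. The 4 genes lie in a row on chromosome 19 of GRCm38, with Ifit2 from 34550694 to 34576419, Ifit3 from 34583531 to 34588731, Ifit3b from 34607970 to 34613401 and Ifit1 from 34640871 to 34650009.

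The MX proteins are GTPases that trap viral nucleocapsids, and BALB/c mice, like most laboratory strains, carry a defective Mx1 gene. Both genes were positive with a median log2 fold change of 0.43, and neither had groups that did not overlap (6.68% of all genes tested). Mx2, annotated as a polymorphic pseudogene, had 68.8, 129 and 99.3 normalized counts in irinotecan tumours, against 59.8, 109.8 and 47.4 in solvent tumours (0.49, SE 0.372). Mx1 had 149, 284 and 213 in irinotecan tumours, against 159, 207 and 129.8 in solvent tumours (0.36, SE 0.283). In both genes irinotecan replicate 1 lay within the solvent range, and leaving it out gave 0.73 for Mx2 and 0.60 for Mx1. Leaving out irinotecan replicate 2 gave 0.28 for Mx2 and 0.13 for Mx1, and leaving out solvent replicate 3 gave 0.24 and 0.20 in the same order. Without solvent replicate 2 Mx2 was at 0.84. They lie on chromosome 16, Mx1 from 97447035 to 97462907 and Mx2 from 97535308 to 97560900.

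The transcription factors of the pathway had a median log2 fold change of 0.60, and in 2 of 3 the groups did not overlap (6.68% of all genes tested). Irf7, the factor that amplifies interferon production, had 772, 781 and 881 normalized counts in irinotecan tumours, against 578, 580.3 and 312 in solvent tumours. All irinotecan libraries were above all solvent libraries, and solvent replicate 3 was far below the other 2 (log2 fold change 0.78, SE 0.245). Without that library it was 0.48. Stat2, the STAT protein specific to interferon types I and III, had 1167, 1232 and 1424 normalized counts in irinotecan tumours, against 806, 1109 and 652 in solvent tumours (0.60, SE 0.203), without overlap. Irf9, the DNA-binding partner of STAT2, averaged 824 ± 72.4 in irinotecan tumours and 624 ± 154 in solvent tumours (SD, n = 3 each; 0.43, SE 0.200), with overlap, and differed by 0.22 without solvent replicate 3.

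With all libraries, the ubiquitin-like and ADP-ribosylation genes had the highest median of the functional groups, 0.64. Without irinotecan replicate 1 their median was 0.59, below OAS (0.71), transcription factors (0.66) and MX (0.66). With all libraries 7 of 7 genes of this group were positive, 5 were higher at an unadjusted p under 0.05 and 4 were without overlap. Among all genes tested the shares were 48.2%, 2.68% and 6.68%. Parp14, an ADP-ribosyltransferase that modifies proteins of the interferon response, had 1687, 1297 and 1609 normalized counts in irinotecan tumours, against 954, 1017 and 648 in solvent tumours. Its groups did not overlap, and its log2 fold change of 0.83 (SE 0.200) was the largest of the 38. The neighbours Parp9 and Dtx3l encode an ADP-ribosyltransferase and the ubiquitin ligase it works with. Parp9 averaged 1051 ± 228 normalized counts in irinotecan tumours and 664 ± 55.7 in solvent tumours (SD, n = 3 each; 0.64, SE 0.177), and Dtx3l averaged 1132 ± 171 in irinotecan tumours and 726 ± 213 in solvent tumours (0.67, SE 0.229). The 3 genes lie together on chromosome 16 of GRCm38, Parp14 from 35832874 to 35871544, Dtx3l from 35926511 to 35939151 and Parp9 from 35938470 to 35972605. Dtx3l and Parp9 overlap by 682 bases on opposite strands, and with no stated strand setting reads from that stretch cannot be assigned.

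Isg15, the ubiquitin-like protein that this pathway attaches to others, had 190.0, 159 and 153 normalized counts in irinotecan tumours, against 136, 138 and 94.9 in solvent tumours. The groups did not overlap, and solvent replicate 3 was lowest (log2 fold change 0.46, SE 0.225, or 0.28 without that library). Herc6, the mouse ligase that attaches ISG15, averaged 766 ± 16.6 in irinotecan tumours and 494 ± 133 in solvent tumours (SD, n = 3 each; 0.66, SE 0.194), without overlap. Usp18, the protease that removes ISG15 and dampens receptor signalling, averaged 386 ± 42.4 in irinotecan tumours and 263 ± 72.0 in solvent tumours (0.59, SE 0.223). The groups of Usp18 overlapped. Trim25, the ubiquitin ligase linked to RIG-I activation, was the exception in this group, with 1826, 1503 and 1556 normalized counts in irinotecan tumours, against 1384, 1748 and 1499.9 in solvent tumours (0.08, SE 0.146). The tumour groups were mixed, and the sign of its difference turned without irinotecan replicate 1 (-0.01).

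**Figure D3:**
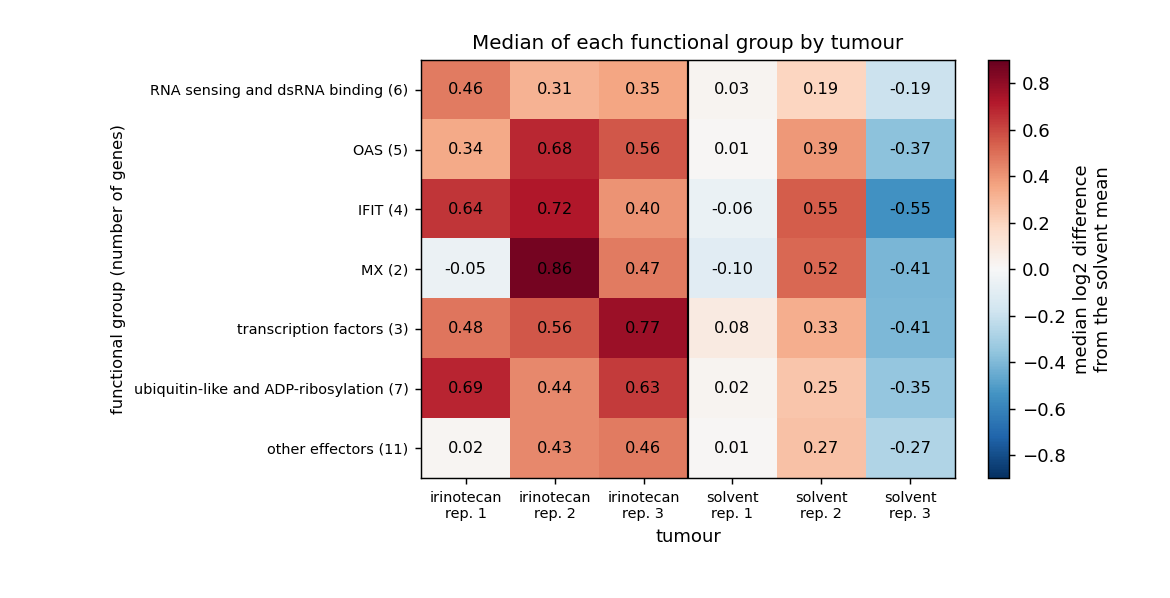
Each cell gives the median, over the genes of a functional group (rows, number of genes in brackets), of log2(normalized count + 1) minus the gene's solvent mean in 1 tumour (columns, irinotecan left of solvent). The lowest median in the irinotecan columns is -0.05 for MX in replicate 1, and solvent replicate 2 is above 0 in every row while solvent replicate 3 is below 0 in every row.

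Across functional groups the medians ran from 0.32 for the other effectors to 0.64 for the ubiquitin-like and ADP-ribosylation genes, with no test of the differences between groups. In irinotecan replicate 1 the group medians were 0.69 for ubiquitin-like and ADP-ribosylation genes, 0.64 for IFIT, 0.48 for transcription factors, 0.46 for RNA sensors and 0.34 for OAS, against 0.02 for the other effectors and -0.05 for MX. In irinotecan replicates 2 and 3 the groups were closer together, from 0.31 to 0.86 and from 0.35 to 0.77. The order of the groups thus differed between the irinotecan tumours, and with 2 to 11 genes each, the group medians do not rank the functions. Without irinotecan replicate 1 the median of the other effectors was 0.48.

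The remaining 11 effectors were the most mixed, with 8 positive and a median log2 fold change of 0.32. Only 1 gene was without overlap (9.09%), near the 6.68% of all genes tested. That gene was Samd9l, a cytosolic restriction factor that also limits cell growth, with 2463, 2556 and 2715 normalized counts in irinotecan tumours, against 1713, 1833 and 1539.6 in solvent tumours. The tumours within each group were close to each other, and the gap between groups exceeded the spread within them (log2 fold change 0.61, SE 0.127). Its limma adjusted p of 0.662, after Benjamini-Hochberg adjustment over all 14639 genes, was the smallest of the 38. Bst2, which encodes tetherin, a membrane protein that holds budding virions on the cell, had 743, 1594 and 1777 normalized counts in irinotecan tumours, against 1560.3, 1811 and 996 in solvent tumours. The groups were intermixed, with irinotecan replicate 1 the lowest of all 6 (-0.14, SE 0.347). Without irinotecan replicate 1 its value was 0.25.

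Cmpk2, a mitochondrial nucleotide kinase, averaged 350.5 ± 54.3 normalized counts in irinotecan tumours and 238 ± 85.7 in solvent tumours (SD, n = 3 each; log2 fold change 0.60, SE 0.262). Its neighbour on chromosome 12, Rsad2, encodes viperin, which makes a chain-terminating nucleotide, and averaged 249 ± 65.4 in irinotecan tumours and 203 ± 35.5 in solvent tumours (0.27, SE 0.249). Both had overlapping groups. Cmpk2 was at 0.40 without solvent replicate 3, and Rsad2 ranged from 0.13 without irinotecan replicate 1 to 0.51 without irinotecan replicate 3. Ifi27l2a, a small hydrophobic protein, averaged 249 ± 116 in irinotecan tumours and 168 ± 65.6 in solvent tumours (0.56, SE 0.402). Ifi44, which is induced by interferon and slows proliferation in human cells, averaged 1215 ± 84.3 in irinotecan tumours and 895 ± 256 in solvent tumours (0.48, SE 0.203). The groups of both genes overlapped. A single tumour moved them by over 1.5 times: Ifi27l2a was at 0.20 without irinotecan replicate 3 and 0.18 without solvent replicate 3, and Ifi44 was at 0.29 without solvent replicate 3. Xaf1, a pro-apoptotic factor, averaged 572 ± 157 in irinotecan tumours and 423 ± 71.8 in solvent tumours (0.41, SE 0.241), with irinotecan replicate 1 at 390.2 within the solvent range, and its difference was 0.66 without that library and 0.27 without solvent replicate 3. Trim30a, a mouse ubiquitin ligase that restrains inflammatory signalling, averaged 1513 ± 154 in irinotecan tumours and 1218 ± 166 in solvent tumours (0.32, SE 0.152).

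The last 3 effectors differed by less than the standard error. The exonuclease gene Isg20 averaged 85.1 ± 9.81 normalized counts in irinotecan tumours and 87.5 ± 15.7 in solvent tumours (SD, n = 3 each; log2 fold change -0.03, SE 0.240). Ifi35, a leucine-zipper protein, averaged 218 ± 68.6 in irinotecan tumours and 210.0 ± 12.2 in solvent tumours (SE of the log2 fold change 0.262), with irinotecan replicate 1 at 139 below the others at 255 and 259, and its log2 fold change was 0.29 without that library. Rtp4, a chaperone of G protein-coupled receptors with antiviral activity, averaged 327 ± 156 in irinotecan tumours and 280.3 ± 46.3 in solvent tumours (0.09, SE 0.385). Irinotecan replicate 1 was again the lowest library, at 149, and without it the difference of Rtp4 was 0.58. Signs of such small differences were unstable: they turned for Isg20 and Ifi35 with quantile normalization (0.03 and 0.07). Removal of the trend on GC content and length turned Isg20 to 0.19, Ifi35 to 0.20 and Bst2 to 0.10, and it put Oasl1 at 0.35 and Ddx58 at 0.12.

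**Figure D4:**
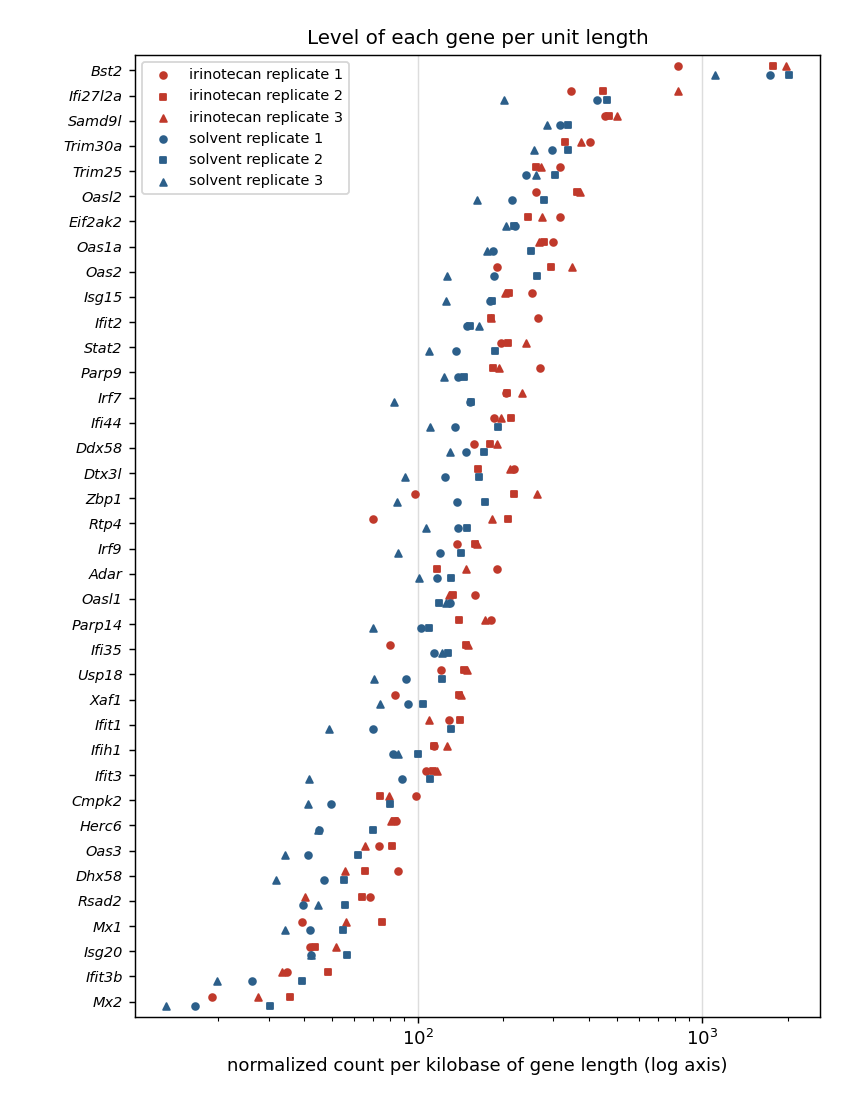
Normalized counts per kilobase of the deposited gene length (x axis, log axis) are shown for each of the 38 genes and each library, sorted by their mean, with irinotecan in red above solvent in blue. Bst2 is at the top and Mx2 at the bottom, and the genes differ from each other far more than the red and blue points of a row do.

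Levels can be compared between genes only per length. On the scale of normalized counts per kilobase, the median level of the 38 genes was 159 in irinotecan tumours and 126 in solvent tumours, whereas over all genes tested it was 91.2 in irinotecan tumours and 90.4 in solvent tumours. Bst2 had the highest level, averaging 1519 per kilobase in irinotecan tumours and 1612 in solvent tumours, followed by Ifi27l2a, Samd9l, Trim30a and Trim25. Mx2 had the lowest level. Baseline level and difference were not the same thing, since of the 5 most abundant genes Samd9l had a log2 fold change of 0.61 while Bst2 had -0.14 and Trim25 had 0.08.

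On the recovered reads, edgeR called 0 genes and 0 of the 38 after Benjamini-Hochberg adjustment. At an unadjusted edgeR p under 0.05, 15 of the 38 were higher and none lower, against 869 of the 14639 genes tested in either direction. DESeq2 called 28 genes higher (0.2% of those it tested) and 19 lower, and 0 of the 38. At an unadjusted DESeq2 p under 0.05, 15 of the 38 were higher and none lower, against 1002 genes in either direction. Shares of all genes higher at these unadjusted p-values are not given here for edgeR and DESeq2. The smallest DESeq2 adjusted p among the 38 was 0.0519 for Samd9l. The authors' deposited table gives a positive log2 fold change for 36 of the 38. The smallest adjusted p-values among the 38 in the authors' deposited table were 0.0519 for Samd9l (log2 fold change 0.61), 0.0697 for Parp14 (0.81) and 0.212 for Parp9 (0.66). The authors' values rest on the same reads and also have 28 genes higher and 19 lower, so they are not independent of the DESeq2 run.

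Without irinotecan replicate 1, a choice made after seeing the data, DESeq2 called 6 of the 38 higher, against 74 of all genes (0.541%). Samd9l had a log2 fold change of 0.64 (DESeq2 adjusted p = 0.000128), Oasl2 of 0.75 (DESeq2 adjusted p = 0.00418) and Parp14 of 0.74 (DESeq2 adjusted p = 0.00829). Zbp1 had 0.86 (DESeq2 adjusted p = 0.0169), Xaf1 0.65 (DESeq2 adjusted p = 0.0245) and Irf7 0.76 (DESeq2 adjusted p = 0.0472). Of these 6, Parp14 had a larger DESeq2 log2 fold change, 0.81, with all libraries, and the others had smaller ones. Limma without irinotecan replicate 1 called 2 genes of the whole table and 0 of the 38.

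**Figure D5:**
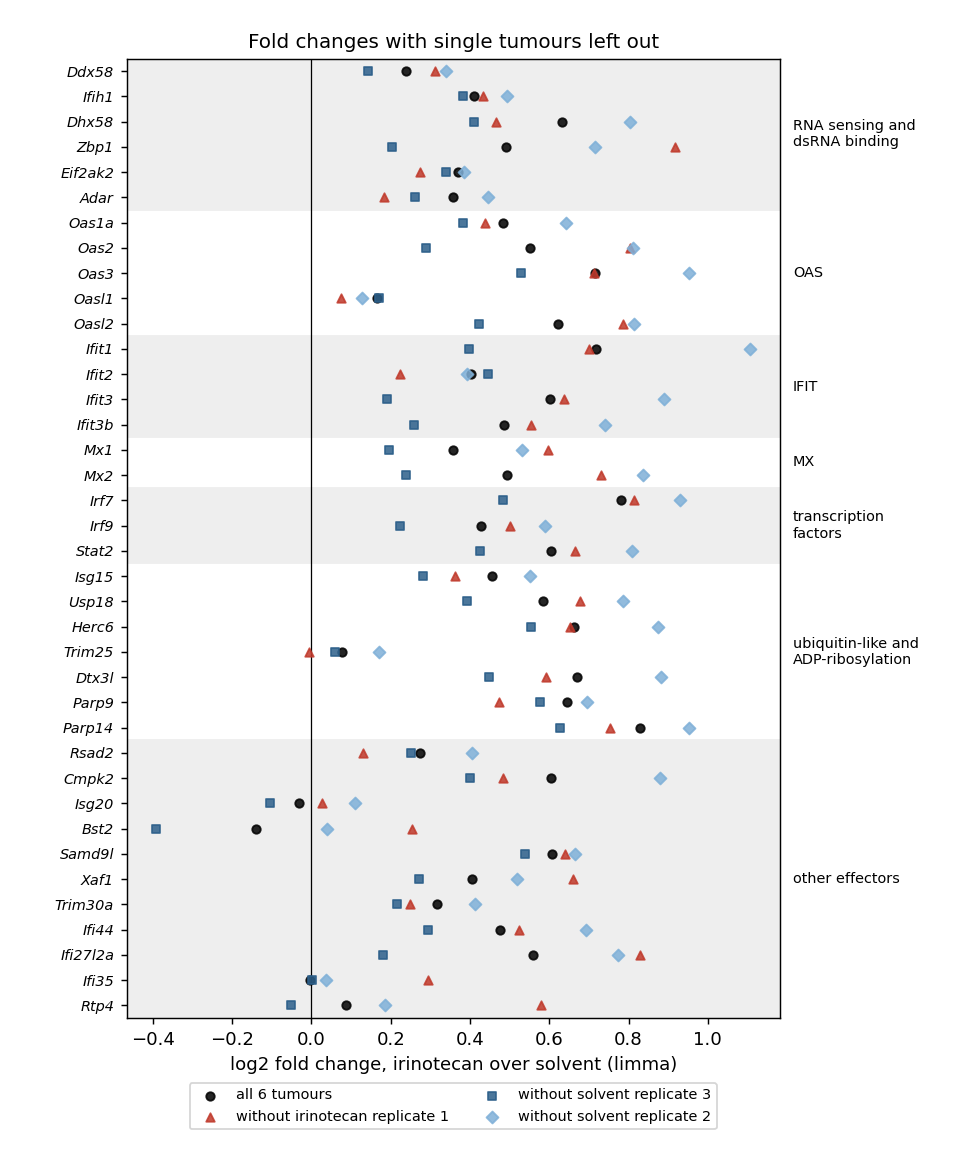
The limma log2 fold change (x axis, irinotecan over solvent) of each gene is drawn with all 6 tumours and with irinotecan replicate 1, solvent replicate 3 or solvent replicate 2 left out. Leaving out solvent replicate 3 moves most points left, to a median of 0.29, and leaving out solvent replicate 2 moves most points right, to a median of 0.68.

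Leaving out single tumours moved the genes unequally. Without solvent replicate 3 the value moved by over 1.5 times for 20 of the 38 genes, 19 of them downwards, among them Irf7 to 0.48, Ifit1 to 0.40, Isg15 to 0.28 and Ddx58 to 0.14. Without irinotecan replicate 1 it moved that far for 12 genes, and without solvent replicate 2 for 8. Samd9l, Parp14 and Oas3 moved less: over the 6 settings Samd9l had 0.54 to 0.67, Parp14 0.63 to 0.95 and Oas3 0.53 to 0.95. Positive values were found for 34 to 38 of the 38 genes in these settings.

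The interferon genes present in the deposited table were close to undetected. Of 20 type I and III interferon genes listed, 3 were in the table. None of these 3 passed the filter, and none had more than 4 reads in a library. The other listed genes had no value in any library, and the reason for their absence is not stated. Ifnb1, the gene of interferon beta, had 0, 1.93 and 1.01 normalized counts in irinotecan tumours, against 0, 3.14 and 0 in solvent tumours, which is no detectable difference at this depth. Of the receptor and kinase genes tested, 3 of 5 were positive with a median of 0.16. For the receptor chain Ifnar1 the log2 fold change was 0.16 (SE 0.151), and for its partner Ifnar2 -0.07 (SE 0.200). The kinase Tyk2 stood at 0.27 (SE 0.173) and Jak1 at 0.17 (SE 0.139). The median of these 5 genes was 0.10 without irinotecan replicate 1, with Ifnar1 at 0.04, Ifnar2 at 0.10 and Jak1 at 0.08. Tyk2 ranged from 0.18 without solvent replicate 3 to 0.43 without solvent replicate 2. Leaving out single tumours for this and the following lists was chosen after seeing the data.

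Among the 5 signalling factors tested the log2 fold change was positive in 2, with a median of -0.09, and Irf5, a factor of myeloid and B cells, had -0.64 (SE 0.373). The median turned sign, to 0.24, without irinotecan replicate 1, and Irf5 was then at -0.18. Of 10 sensing adaptors and receptors 4 were positive, with a median of -0.08, and the endosomal receptors Tlr7 and Tlr9, of RNA and of DNA, had -0.49 (SE 0.228) and -1.54 (SE 0.740). Tlr9 had 6.16, 34.7 and 72.0 normalized counts in irinotecan tumours, against 68.2, 92.0 and 70.7 in solvent tumours, so irinotecan replicate 3 lay within the solvent range. For Tlr7 all irinotecan libraries lay below all solvent libraries. Leaving out irinotecan replicate 1 turned the median of the list to 0.02, while Tlr7 was at -0.29 and Tlr9 at -0.60. Of 6 negative regulators 3 were positive, with a median of -0.03, and Socs3 and Socs1, inhibitors of cytokine receptors, had -0.60 (SE 0.277) and -0.56 (SE 0.424). Socs1 had 85.2, 292 and 269 normalized counts in irinotecan tumours, against 289.8, 279 and 267 in solvent tumours, so only irinotecan replicate 1 stood below the solvent range. Without that library the median of the list was -0.02, Socs3 was at -0.25 and Socs1 at 0.01. Limma called 0 genes in each of these lists.

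Of 37 further interferon-stimulated genes tested, 27 were positive with a median log2 fold change of 0.22, 9 were higher at an unadjusted p under 0.05, and in 11 the groups did not overlap. The shares over all genes tested, given above, were 48.2%, 2.68% and 6.68%. The median was 0.14 without solvent replicate 3 and 0.35 without solvent replicate 2. The helicase gene Ddx60 had 0.68 (SE 0.158) and the GTPase gene Ifi47 had 0.63 (SE 0.137), the 2 smallest p-values of that list. Of 12 genes known mainly as targets of interferon gamma, 12 were positive with a median of 0.97, 9 were higher at an unadjusted p under 0.05, and in 9 the groups did not overlap, to be read against the same shares. The guanylate-binding genes Gbp2b and Gbp2 had 1.34 (SE 0.216) and 1.24 (SE 0.212). Limma called 0 genes in both lists, many genes answer to interferons of both types, and the difference between the lists was not tested.

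Markers of other cells differed between tumours as well. The summed level of 6 macrophage and monocyte markers was 2686 to 5445 normalized counts in irinotecan tumours, lowest in replicate 1, and 4939 to 6042 in solvent tumours. The 6 plasmacytoid dendritic cell markers summed to 3974 to 5579 normalized counts in irinotecan tumours and 4023 to 4456 in solvent tumours, nearly all from Tcf4 and Runx2, which other cells also express. Siglech, a lectin gene used to define these cells, had 0, 2.89 and 14.2 normalized counts in irinotecan tumours, against 31.8, 15.7 and 4.84 in solvent tumours, with overlap. The 6 T cell markers summed to 206 to 428 normalized counts in irinotecan tumours and 230.5 to 315.7 in solvent tumours, and the 4 NK cell markers to 158 to 260.1 in irinotecan tumours and 133 to 188 in solvent tumours. In both lists the groups overlapped. The 3 neutrophil markers found summed to 38.5 to 89.3 normalized counts in irinotecan tumours and 89.9 to 321 in solvent tumours, highest in solvent replicate 3, and the 3 endothelial markers to 1144 to 1539.6 in irinotecan tumours and 1764 to 2093 in solvent tumours. The summed levels of both lists were lower in every irinotecan tumour than in any solvent tumour, for neutrophils by 89.3 against 89.9 at the nearest, while the single genes Kdr, S100a8 and S100a9 overlapped. The 4 fibroblast markers summed to 31250.3 to 33956 normalized counts in irinotecan tumours and 25819 to 35224 in solvent tumours. The 3 B cell markers summed to 7.19 to 14.4 in irinotecan tumours and 13.6 to 26.1 in solvent tumours, and the 3 muscle markers to 80.1 to 553 in irinotecan tumours and 10.5 to 261 in solvent tumours. The part of these cells in the values of the antiviral genes was not tested.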

How the data were processed

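Flash-frozen tumours gave total RNA for Illumina libraries, per the labels' protocols. Per the submitters' processing notes the build was GRCm38 (mm10), and the tools were DESeq2 1.20.0, featureCounts 1.5.0-p3, HISAT2 2.0.5, fastp and CASAVA. No role per tool, strand setting or annotation release is stated. The single table deposited by the authors holds, for each library, a normalized signal equal to the gene's read count over a library factor. Also deposited are the authors' log2 fold changes and p-values and a gene length.

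Division gave back whole reads (100% of values, at a tolerance of 1e-06). Reads carry no molecular identifiers, so depth bounds counting error only. Limma 3.58.1 (R 4.3.3; trended empirical Bayes) was fitted to log2(normalized count + 1) of the 14639 genes whose mean was at least 10, with group as the only term, two-sided, with Benjamini-Hochberg adjustment at 0.05. Alternatives were edgeR 4.0.16 with TMM and DESeq2 1.42.0 on the reads, quantile normalization, pseudocounts of 0.5 and 10, no filter, a replicate block, omission of single libraries, and removal of a trend on length and GC content (GENCODE M21, 99.9% of tested genes). DESeq2 without irinotecan replicate 1 was added after seeing the data. Limma was first tested on simulated counts.

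The 38 genes, their functional groups and the pathway lists were chosen with earlier results of these data known. Values in every library are given for the gene with the smallest unadjusted p and the gene with the highest level per kilobase in each functional group, and for Irf7, Isg15, Ifit1, Stat2 and Ddx58. From each pathway list the 2 genes with the smallest p are named, plus Ifnb1, Ifnar1 and Ifnar2, and 1 such gene is not reported here. Close copies (Ifit3 and Ifit3b, the OAS genes, Mx1 and Mx2, Ifi27l2a, Trim30a) may share reads, and 11 of the 38 overlap a gene on the other strand, so these values are uncertain to that extent.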

Additional observations from a re-analysis of the deposited data

How the results depend on the processing

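The median log2 fold change of the 38 genes kept its direction under every alternative run. No paired structure was found: same-numbered libraries had correlations of -0.114, -0.00869 and -0.213 in their deviations from the group means. With the replicate number as a block limma called 0 genes and the median was 0.48. In that fit 13 of the 38 genes were higher at an unadjusted p under 0.05, given without a share over all genes. DESeq2 called 28 genes higher and 19 lower, and without irinotecan replicate 1 it called 74 higher and 77 lower, 6 of them among the 38. With each library left out in turn, limma called 0 to 2 genes higher, 5 to 23 of the 38 were higher at an unadjusted p under 0.05, and 13 to 27 had groups that did not overlap. The counts at an unadjusted p under 0.05 were 5 without solvent replicate 3 (1.41% of all genes), 7 without solvent replicate 1 (1.26%) and 9 without irinotecan replicate 3 (2.61%). Those without overlap were 25 without irinotecan replicate 1 (12.8% of all genes) and 27 without solvent replicate 2 (12.7%).

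Of the 38 genes, Trim25, Isg20, Bst2, Ifi35 and Rtp4 turned sign in at least 1 alternative, and the cause was not tested. Isg20 was at 0.028 and Ifi35 at 0.069 with quantile normalization, and Ifi35 at 0.055 with edgeR, 0.053 with DESeq2 and 0.00033 with a pseudocount of 10. With the GC and length trend removed, Isg20 was at 0.19, Bst2 at 0.098 and Ifi35 at 0.20. Without irinotecan replicate 1, DESeq2 gave Trim25 -0.014, Isg20 0.019, Bst2 0.21 and Ifi35 0.29. With single libraries left out, limma gave Trim25 -0.0072 to 0.17, Isg20 -0.12 to 0.11, Bst2 -0.39 to 0.25, Ifi35 -0.16 to 0.29 and Rtp4 -0.20 to 0.58.

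The median of the MX genes was 0.21 without irinotecan replicate 2 and 0.22 without solvent replicate 3, against 0.66 without irinotecan replicate 1 and 0.68 without solvent replicate 2. That of the IFIT genes was 0.33 without solvent replicate 3 and 0.82 without solvent replicate 2. Depth was at least 41 reads per gene and library, and replicates of a group differed beyond counting error (chi-square over degrees of freedom 10.8 or more).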
